A study of Mus musculus with 196 samples.

Results

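Langerhans cells are the antigen-presenting cells of the epidermis, and dermal macrophages are resident phagocytes of the connective tissue beneath it. Both depend on the receptor encoded by Csf1r, which has 2 ligands: Il34, made largely by keratinocytes, maintains Langerhans cells, and Csf1 maintains most dermal macrophages. Langerhans cells are told from macrophages by langerin, the lectin encoded by Cd207, together with the adhesion molecule Epcam and the integrin Itgax, whereas many dermal macrophages carry the scavenging receptors Mrc1 and Cd163.

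The 9 genes described here, of 18820 genes measured, were a list chosen with earlier results of these data known. They were the Langerhans cell markers Cd207, Epcam and Itgax (3 genes) and the macrophage markers Csf1r, Cd68, Mrc1, Cd163, Lyz2 and Cd14 (6 genes). Each had 1 probe set (a group of array probes summarised as 1 value) that named it alone. They were followed in whole skin, 1 array per sample, from 100 untreated 8-week-old mice of a backcross: F1 females, from FVB/N mothers and Mus spretus fathers, were bred to FVB/N males, so every mouse carried FVB/N alleles and its own share of spretus alleles. Dorsal skin was labelled non-anagen in 85 arrays (41 from females, 44 from males) and anagen, the phase of hair growth, in 14 arrays (8 from females, 6 from males). Dorsal skin was shaved and both tissues were frozen at collection. Tail skin, which carries no hair cycle label of its own, gave 97 arrays (48 from females, 49 from males). The sample is whole skin, so a lower signal can mean fewer cells of a type or less RNA per cell, and these cannot be told apart. All dorsal arrays were in batches 1 and 2 and all tail arrays in batches 3 and 4, and the effect of a batch cannot be told apart from that of the tissue.

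Array medians lay between 5.67 and 6.03 on the log2 scale. They were higher in tail skin, with a mean of 5.95 in tail arrays and of 5.81 in both non-anagen and anagen dorsal arrays. The 5 arrays least correlated with their group's mean were those of anagen dorsal skin from mice 1039, 1080 and 1083, non-anagen dorsal skin from mouse 1002 and tail skin from mouse 1069. The arrays labelled anagen dorsal skin from mice 1080 and 1083 correlated over all genes at r = 0.947 and r = 0.939 with the mean non-anagen dorsal array and at r = 0.954 and r = 0.946 with the mean tail array. The mean of 4 skeletal muscle genes was 9.65 and 11.05 in them, above every tail array (5.12 to 9.23) and within the range of non-anagen dorsal arrays (5.38 to 11.82). The anagen comparisons, which rest most on these arrays, are given with and without the 5 arrays. As a reference for background, the probe sets of 3 Y-linked genes in females, which have no template for them, averaged 4.63 (Kdm5d), 3.51 (Eif2s3y) and 3.37 (Uty) in non-anagen dorsal arrays. Kdm5d in females averaged 4.197 in tail arrays. The mean of Cd14 was 4.82 in non-anagen dorsal arrays, close to the highest of these, and 5.48 in tail arrays. Levels of different genes are not set against each other, since each probe set has its own background.

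Of the 9 genes, 7 had a promoter window in the RefSeq table for GRCm38.p6. The windows of Cd207 and Mrc1 are printed because these were the members that differed most between tail and dorsal skin, in opposite directions. Cd207 lies at chr6:83671207-83677857 on the minus strand and Mrc1 at chr2:14229414-14332023 on the plus strand. Each sequence is the 250 bases before the annotated start, 5′ to 3′ in the direction of transcription, at chr6:83677858-83678107 for Cd207 and at chr2:14229164-14229413 for Mrc1. Capitals mark matches to GAGGAA or its reverse complement TTCCTC, the core bound by PU.1 and related ETS factors of myeloid cells, and to TGANTCA, the AP-1 motif.
Cd207: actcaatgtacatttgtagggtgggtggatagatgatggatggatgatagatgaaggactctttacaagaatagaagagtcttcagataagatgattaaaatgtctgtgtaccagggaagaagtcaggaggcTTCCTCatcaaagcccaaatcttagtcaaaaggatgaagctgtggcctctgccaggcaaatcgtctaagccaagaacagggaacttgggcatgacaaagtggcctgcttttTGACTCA
Mrc1: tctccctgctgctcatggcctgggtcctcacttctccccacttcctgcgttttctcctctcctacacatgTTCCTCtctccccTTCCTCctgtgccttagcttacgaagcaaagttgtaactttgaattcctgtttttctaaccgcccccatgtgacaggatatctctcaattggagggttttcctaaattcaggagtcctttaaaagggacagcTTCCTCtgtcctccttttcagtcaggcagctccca

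The Cd207 window held 1 ETS core, on the reverse strand and beginning 118 bases before the start, and 1 AP-1 match beginning 7 bases before it. The Mrc1 window held 3 ETS cores, all on the reverse strand, and no AP-1 match. No match overlapped another. Over all 32851 windows of the same length, 23.3% held an ETS core on either strand and 6.75% an AP-1 match. TGTGGT, the core bound by RUNX factors, was in neither window and in 14% of all windows. Of the other 5 windows, that of Itgax held 1 AP-1 match, that of Cd68 held 1 ETS core and 2 AP-1 matches, that of Lyz2 held 1 RUNX core, and those of Epcam and Cd163 held none of these motifs. These matches describe the letters only and were not tested as binding sites.

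Tail skin had a lower signal of all 3 Langerhans cell markers and a higher signal of all 6 macrophage markers than non-anagen dorsal skin, although the direction of Csf1r changed with the scaling of the arrays. Cd207 was 3.24-fold lower in tail skin (95% confidence interval 2.99 to 3.52) and Mrc1 2.35-fold higher (2.01 to 2.75). The other differences were smaller: Epcam and Itgax were 1.17- and 1.23-fold lower, and Lyz2, Cd68, Cd163 and Csf1r were 1.77-, 1.56-, 1.56- and 1.17-fold higher. Cd14 was higher too, and no fold is given for it because its dorsal signal was near that of the Y-linked genes in females. All 9 passed the threshold of an adjusted p under 0.05 in limma's fit, against 43.7% of genes higher and 43.4% lower at any size. Only Cd207 and Mrc1 also reached a difference of 1 on the log2 scale, as did 3.94% of genes that were higher and 2.02% that were lower. With all arrays shifted to the same median, these 741 higher and 381 lower genes became 489 and 620, and both members stayed called. With most genes called at any size, the size of a difference says more than its call.

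**Figure D1:**
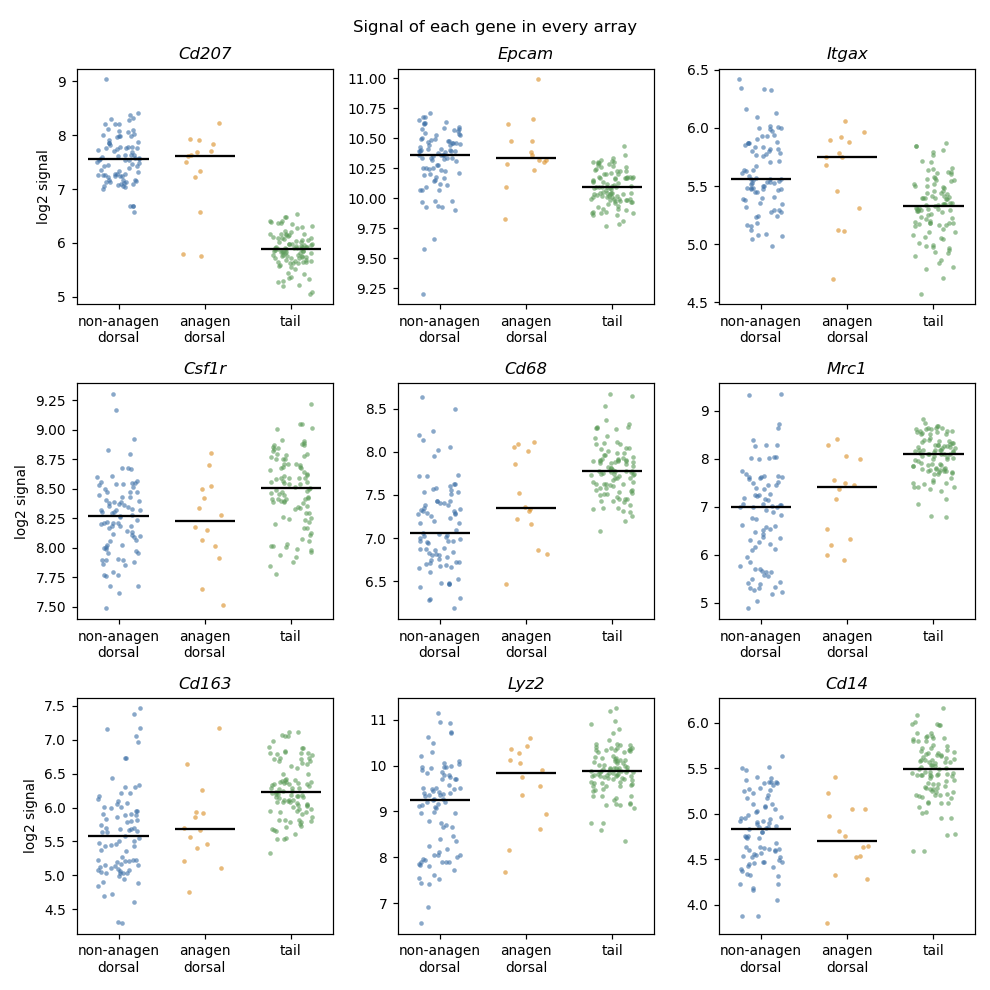
Log2 signal (vertical axis) of each of the 9 genes in every array, with 1 point per array and a black line at the group median, for 85 non-anagen dorsal, 14 anagen dorsal and 97 tail arrays; the vertical axes do not start at 0 and differ between genes. For Cd207, every tail point lies below every non-anagen dorsal point, while Mrc1 and Lyz2 spread widely in dorsal skin and narrowly in tail skin.

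Langerin is the C-type lectin that forms Birbeck granules, the organelles by which Langerhans cells are recognised. Its gene, Cd207, had a lowest, median and highest signal of 6.58, 7.55 and 9.04 in non-anagen dorsal arrays, of 5.75, 7.62 and 8.23 in anagen dorsal arrays, and of 5.06, 5.89 and 6.54 in tail arrays. All 97 tail arrays were below all 85 non-anagen dorsal arrays, a separation downward shared by 0.478% of genes (1.42% were separated upward). Tail minus non-anagen dorsal skin was -1.70 on the log2 scale (SE 0.06, limma, adjusted p = 6.4e-70), and tail minus anagen dorsal skin was -1.45 (SE 0.12, adjusted p = 1.61e-25). Both comparisons use the same tail arrays. The cells that gave the Cd207 signal were not tested, and genes of other dendritic cells were lower in tail skin too.

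Epcam encodes an adhesion molecule of Langerhans cells that hair follicle keratinocytes also make, so its signal is not specific to Langerhans cells in whole skin. Its lowest, median and highest signal was 9.20, 10.36 and 10.71 in non-anagen dorsal arrays, 9.83, 10.34 and 10.99 in anagen dorsal arrays, and 9.77, 10.09 and 10.44 in tail arrays. The groups overlapped, with 96 of 97 tail arrays below the non-anagen dorsal median. The difference was -0.23 (SE 0.03, limma, adjusted p = 5.14e-12).

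Itgax encodes CD11c, an integrin of Langerhans cells and of other dendritic cells. Non-anagen dorsal arrays ran from 4.98 through a median of 5.56 to 6.42, anagen dorsal arrays from 4.70 through 5.75 to 6.06, and tail arrays from 4.58 through 5.33 to 5.87. The groups overlapped broadly, and 79 of 97 tail arrays were below the non-anagen dorsal median. Tail minus non-anagen dorsal skin was -0.30 (SE 0.04, limma, adjusted p = 2.76e-10). The mean of Itgax, like those of Cd163 and Cd14, lay below the median of all gene means (6.49).

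Among the macrophage markers, Mrc1, the mannose receptor CD206, was the furthest apart. It ran from 4.88 through a median of 6.99 to 9.36 in non-anagen dorsal arrays, from 5.902 through 7.42 to 8.42 in anagen dorsal arrays, and from 6.78 through 8.10 to 8.84 in tail arrays. The highest dorsal arrays exceeded every tail array, yet 39 dorsal arrays lay below every tail array and 95 of 97 tail arrays lay above the dorsal median. The difference was 1.23 (SE 0.12, limma, adjusted p = 6.45e-21). The gap was widest at the lower quartile, which was 5.96 in non-anagen dorsal and 7.78 in tail arrays. It was smaller at the median and smaller again at the upper quartile, which was 7.58 in non-anagen dorsal and 8.35 in tail arrays.

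Cd163 encodes the scavenger receptor that takes up haemoglobin bound to haptoglobin. Its signal ran from 4.30 through 5.58 to 7.46 in non-anagen dorsal arrays, from 4.75 through 5.69 to 7.18 in anagen dorsal arrays and from 5.33 through 6.23 to 7.12 in tail arrays. As for Mrc1, the groups overlapped at the top, and 32 dorsal arrays lay below every tail array. The difference was 0.64 (SE 0.08, limma, adjusted p = 5.33e-13).

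Cd68 encodes a lysosomal glycoprotein of phagocytes. Non-anagen dorsal arrays ran from 6.19 through 7.06 to 8.63, anagen dorsal arrays from 6.47 through 7.35 to 8.11, and tail arrays from 7.08 through 7.78 to 8.67. All 97 tail arrays were above the non-anagen dorsal median, and 43 dorsal arrays were below every tail array. The difference was 0.64 (SE 0.06, limma, adjusted p = 2.1e-19).

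Lyz2 encodes the lysozyme of macrophages and neutrophils. Its signal ran from 6.57 through 9.25 to 11.13 in non-anagen dorsal arrays, from 7.69 through 9.83 to 10.60 in anagen dorsal arrays and from 8.36 through 9.88 to 11.24 in tail arrays. The groups overlapped widely, and the difference was 0.83 (SE 0.12, limma, adjusted p = 3.12e-11). Lyz1, a near-identical neighbouring gene, averaged 7.26, 7.55 and 8.21 in the same groups, and how far the probe sets of these copies share signal is uncertain.

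Cd14 encodes the co-receptor that passes bacterial lipopolysaccharide to Toll-like receptor 4. It ran from 3.87 through 4.83 to 5.63 in non-anagen dorsal arrays, from 3.80 through 4.70 to 5.40 in anagen dorsal arrays and from 4.59 through 5.49 to 6.16 in tail arrays. The shift was upward over the whole range: 30 tail arrays lay above every non-anagen dorsal array and 26 dorsal arrays below every tail array. The difference was 0.66 (SE 0.05, limma, adjusted p = 9.51e-26).

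Csf1r, the receptor that both cell types need, was the member whose direction depended on scaling. Its signal ran from 7.49 through 8.27 to 9.30 in non-anagen dorsal arrays, from 7.51 through 8.23 to 8.80 in anagen dorsal arrays and from 7.78 through 8.51 to 9.22 in tail arrays, nearly the same range. The difference was 0.23 (SE 0.05, limma, adjusted p = 3.41e-06) in the deposited values. It was 0.03 (limma, adjusted p = 0.557) once every array had been shifted to 1 common median and -0.02 (adjusted p = 0.712) after quantile normalization of all arrays. The shift to the same median moved the median difference over all genes to -0.21. The other 8 members kept their direction and their call against non-anagen dorsal skin under both, but their sizes moved. Over the deposited values and all alternatives, Epcam ran from -0.49 to -0.22, Itgax from -0.51 to -0.29 and Cd207 from -1.90 to -1.67. Mrc1 ran from 1.01 to 1.26, Lyz2 from 0.58 to 0.84 and Cd68 from 0.39 to 0.64. For Cd163 the range was 0.43 to 0.66 and for Cd14 0.46 to 0.71.

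Within mice, the contrast was seen animal by animal. In the 82 mice with tail and non-anagen dorsal arrays, Cd207 was lower in the tail of 82, by 0.53 to 3.01 on the log2 scale. Cd14 was higher in the tail of 79 mice, Cd68 and Mrc1 each in 71, Cd163 in 66, Csf1r in 65 and Lyz2 in 62, while Epcam was lower in 64 and Itgax in 60. The macrophage markers therefore ran against the mean direction in 3 to 20 of 82 mice, and Cd207 in none.

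**Figure D2:**
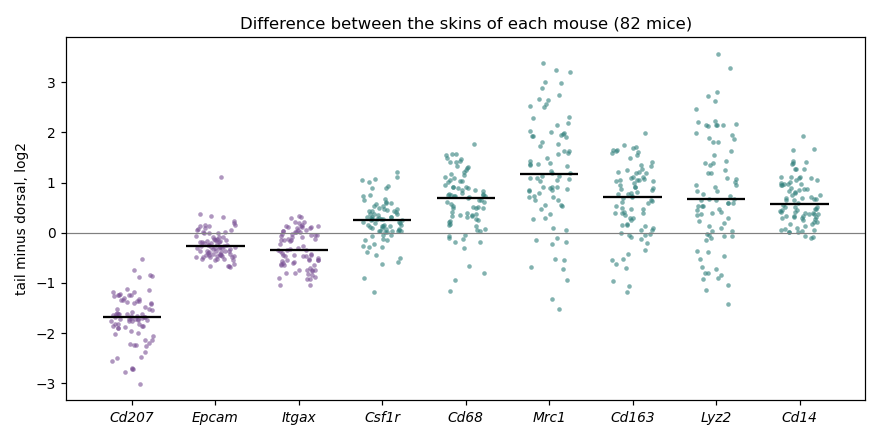
Tail minus non-anagen dorsal signal on the log2 scale (vertical axis) for each of the 9 genes, with 1 point for each of 82 mice and a black line at the median; purple marks Langerhans cell markers and teal marks macrophage markers. All 82 Cd207 points lie below 0, whereas the Mrc1 and Lyz2 points spread on both sides of it.

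A difference between 2 genes on the same array does not change when the array as a whole is scaled. Cd207 fell in tail skin relative to each of the other members, with mean differences from -1.39 (against Itgax) to -2.92 (against Mrc1) on the log2 scale. It fell relative to Csf1r by 1.94 on average (SD 0.56, n = 82 mice), and did so in 82 of 82 mice. The same count was reached against every other member except Mrc1, with 81 of 82. For each of the 8 comparisons the two-sided permutation p was 1e-05, the smallest that 100000 sign changes can give. All 8 share the same Cd207 values, already lower in the tail of 82 of 82 mice, so they are not independent of that result.

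In the 14 mice with anagen dorsal skin, most members differed between the tissues in the same direction as above. Cd207 was lower in the tail of 12 of them and Cd14 higher in 14. Over all arrays of these groups, 8 of 9 members passed the threshold at any size (38.8% of genes higher, 34.9% lower), and Cd207 also reached 1 on the log2 scale (1.69% of genes lower, 3.33% higher). Mrc1 was higher by 0.84 (SE 0.22, limma, adjusted p = 0.000368) and Cd163 by 0.52 (SE 0.16, adjusted p = 0.00196). Lyz2 differed by 0.33 (SE 0.22, adjusted p = 0.171) and was higher in the tail of 7 mice and lower in 7. The higher signal of Csf1r (0.28) and Cd68 (0.34) dropped below the threshold, at 0.09 and 0.16, at a common array median (limma, adjusted p = 0.31 and 0.205).

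Other genes tied to Langerhans cells went in both directions. Runx3 and Il34, both needed by Langerhans cells, were lower in tail skin together with Cd207, and Cd24a was higher. Of 11 other Langerhans cell genes, 4 were higher and 7 lower at any size, and 1 was higher and 1 lower by at least 1. Their median difference was -0.25, against 0.00 over all genes. Runx3, a transcription factor needed for Langerhans cell development, fell from a mean of 8.35 to 7.12, a difference of -1.24 (SE 0.05, limma, adjusted p = 2.13e-59). Cd24a, which keratinocytes and hair follicles also express, was higher by 1.42. Which cells gave the Runx3 and Cd24a signals was not tested. Ccr7, the chemokine receptor of migrating dendritic cells, was lower by 0.82 and Ly75, the endocytic receptor DEC-205, by 0.68.

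All 6 measured MHC class II genes, which load and present antigen on Langerhans cells and other dendritic cells, were lower in tail skin, 4 of them by at least 1, with a median difference of -1.41. H2-Ab1 differed by -1.62 and Cd74, the invariant chain, by -1.51. All 8 genes of other dendritic cells were lower too, with differences from -0.77 (Cd209a) to -0.21, and none reached 1.

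In the list of Csf1r ligands and related growth factors, 8 of 10 genes were lower and 2 higher at any size, with a median difference of -0.42. Il34 was lower by 1.09 (SE 0.06, limma, adjusted p = 3.81e-45), and was lower in the tail of 82 of 82 mice. Csf1, the ligand for macrophages, was lower by 0.56 and Spi1, which encodes PU.1, by 0.77. Cebpb, a transcription factor of myeloid cells and keratinocytes, was higher by 0.53.

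The other macrophage genes did not all go with the 6 markers. Of 24 measured, 15 were higher and 8 lower in tail skin, and their median difference was 0.53. Maf, a transcription factor of resident macrophages, was higher by 1.53 (SE 0.04, limma, adjusted p = 4.07e-101), Pf4 by 1.11 and F13a1, a coagulation factor subunit of resident macrophages, by 0.84. The SD of Maf in non-anagen dorsal arrays was 0.27, against 1.04 for Mrc1, and which cells gave the Maf signal was not tested. Adgre1, which encodes the F4/80 antigen of mouse macrophages and Langerhans cells, was lower by 0.82 (SE 0.06, limma, adjusted p = 3.36e-29). Mertk (-0.77), the receptor for dying cells, Tyrobp (-0.58) and Aif1 (-0.45) were lower as well; these 3 were chosen after their values were seen. Within the Toll-like receptor list, Lbp, which hands lipopolysaccharide to Cd14, was higher by 1.24 and Ly96, the partner of Toll-like receptor 4, by 0.66, while Tlr4 itself differed by -0.01 (limma, adjusted p = 0.874; named after its value was seen).

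Markers of other cell types differed between the tissues as well. The mean signal of 5 T cell genes ran from 6.87 through a median of 7.57 to 8.31 in non-anagen dorsal arrays and from 5.37 through 5.84 to 6.26 in tail arrays, without overlap, with Cd3g lower by 3.74. The pan-leukocyte gene Ptprc was lower by 1.54. Mast cell genes were higher (4 of 5 by at least 1), all 7 inner root sheath genes were higher, and all 4 skeletal muscle genes were lower by at least 1. None of 5 keratinocyte genes reached 1, and their median difference was 0.12. In the list of 5 lymphatic endothelial genes, 3 were higher and 1 lower at any size. Lyve1 (1.67) and Stab1 (1.32), which macrophages also express, were higher, whereas Prox1, specific to lymphatic vessels, differed by 0.12 and Pdpn by -0.26. Among 4 blood endothelial genes 3 were lower at any size, with Cdh5 (-0.68) and Pecam1 (-0.43) furthest apart. Of 7 neutrophil genes, 4 were higher and 3 lower at any size, with Cxcr2 (1.90), S100a9 (1.24), S100a8 (0.995) and Mpo (-1.44) furthest apart. Of 4 monocyte genes 3 were lower at any size, as were all 5 genes of hair follicle stem cells and germ. Of 4 sebaceous gland genes, 2 were higher and 2 lower at any size. The part of these other cell types in the differences of the 9 genes and of the other lists was not tested.

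Dorsal skin varied more from mouse to mouse than tail skin, and among the members Mrc1 and Lyz2 varied most. Over all genes the SD in non-anagen dorsal arrays was 1.33 times that in tail arrays at the median, and it was larger in dorsal skin for 85.5% of genes. For Mrc1 the ratio was 2.40 (SD 1.04 against 0.43) and for Lyz2 1.94 (SD 1.00 against 0.51), which put both at the 99.4 percentile of dorsal SD among all genes. The ratio of the other members ran from 1.81 (Epcam) to 1.06 (Csf1r).

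The macrophage markers varied together from mouse to mouse in both tissues. Correlations were taken after adjusting for sex and batch, for 36 pairs in each of 2 groups of arrays, and adjusted p-values are over all genes. They are descriptive: the arrays of a pair share the same RNA, and other genes are correlated as widely (for Mrc1 in dorsal skin, 15.3% of genes positively and 18.1% negatively at an adjusted p under 0.05). Over the 15 pairs of macrophage markers, Pearson's r had a median of 0.58 (0.30 to 0.86) in 85 non-anagen dorsal arrays and of 0.60 (0.45 to 0.81) in 97 tail arrays. In dorsal skin the closest pair was Mrc1 and Lyz2, with r = 0.86, Spearman's rho = 0.85 and r = 0.85 without the 2 arrays farthest from the median. Mrc1 and Cd163 followed, with r = 0.83 and rho = 0.80. In tail skin the closest pair was Csf1r and Mrc1, with r = 0.81 and rho = 0.77.

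**Figure D3:**
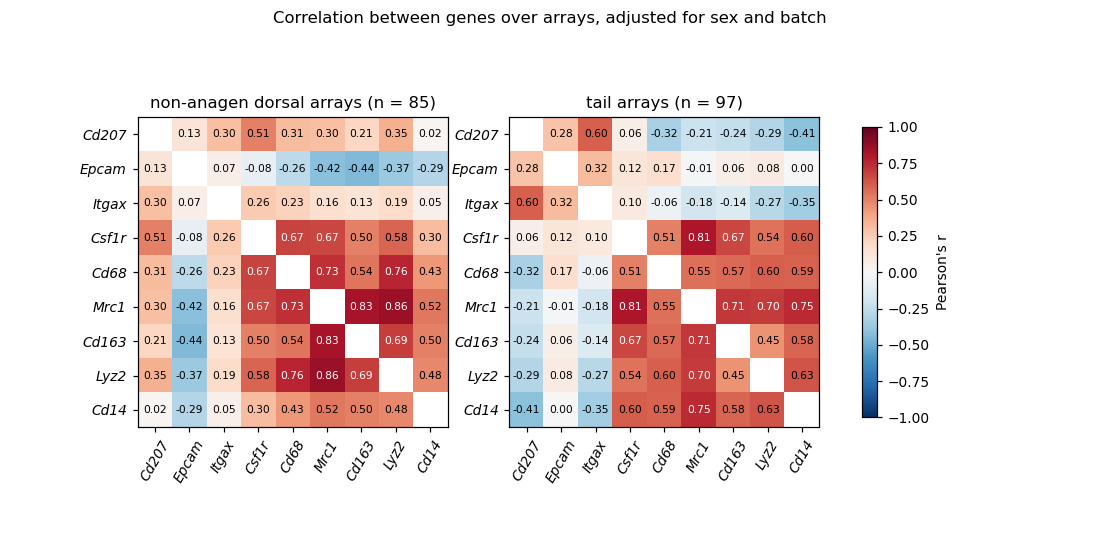
Pearson's r between each pair of the 9 genes over 85 non-anagen dorsal arrays (left) and 97 tail arrays (right), after adjusting for sex and batch, on a colour scale from -1 (blue) to 1 (red). The block of the 6 macrophage markers is red in both tissues, and the row of Cd207 against them is red in dorsal skin and mostly blue in tail skin.

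The correlation of Cd207 with the macrophage markers differed between the tissues. In non-anagen dorsal arrays it was positive with 5 of them, from 0.21 (Cd163) to 0.51 (Csf1r), and near 0 with Cd14 (0.02). In tail arrays it was negative with 5 of them, from -0.21 (Mrc1) to -0.41 (Cd14), and near 0 with Csf1r (0.06). For Cd207 and Csf1r in dorsal skin rho was 0.51, the adjusted p over all genes was 0.000428 (3.63% of genes were positively correlated with Cd207 at that threshold) and r was 0.46 without the 2 arrays farthest from the median. For Cd207 and Cd14 in tail skin rho was -0.44, the adjusted p was 0.00208 (2.96% of genes negatively correlated) and r was -0.39 without 2 arrays. At an adjusted p under 0.05 over all genes, Cd207 was positively correlated with 2 of the other 8 members in dorsal skin (Csf1r and Lyz2) and negatively with none (3.19% of genes), and in tail skin positively with 2 (Epcam and Itgax, 9.36% of genes) and negatively with 3 (Cd68, Lyz2 and Cd14).

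The difference itself was tested in the 82 mice with both tissues by exchanging the tissues within mice, a test added after the correlations had been seen, for Cd207 with each of the other 8 genes. With Cd68 the correlation was 0.31 in dorsal and -0.37 in tail skin (difference 0.68, permutation p = 9e-05). With Lyz2 it was 0.35 and -0.27 (difference 0.62, p = 1e-04), with Mrc1 0.30 and -0.23 (0.53, p = 0.00044), with Csf1r 0.49 and 0.00 (0.50, p = 0.00236), and with Cd163 0.20 and -0.30 (0.49, p = 0.00124). With Cd14 it was -0.04 and -0.40 (0.36, p = 0.00941), and this difference was 0.28 (p = 0.0531) within batches 1 and 4. In all, 7 of 8 pairs differed at a two-sided p under 0.05, not adjusted for the 8 pairs. The exception was Epcam (difference -0.17, p = 0.243).

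**Figure D4:**
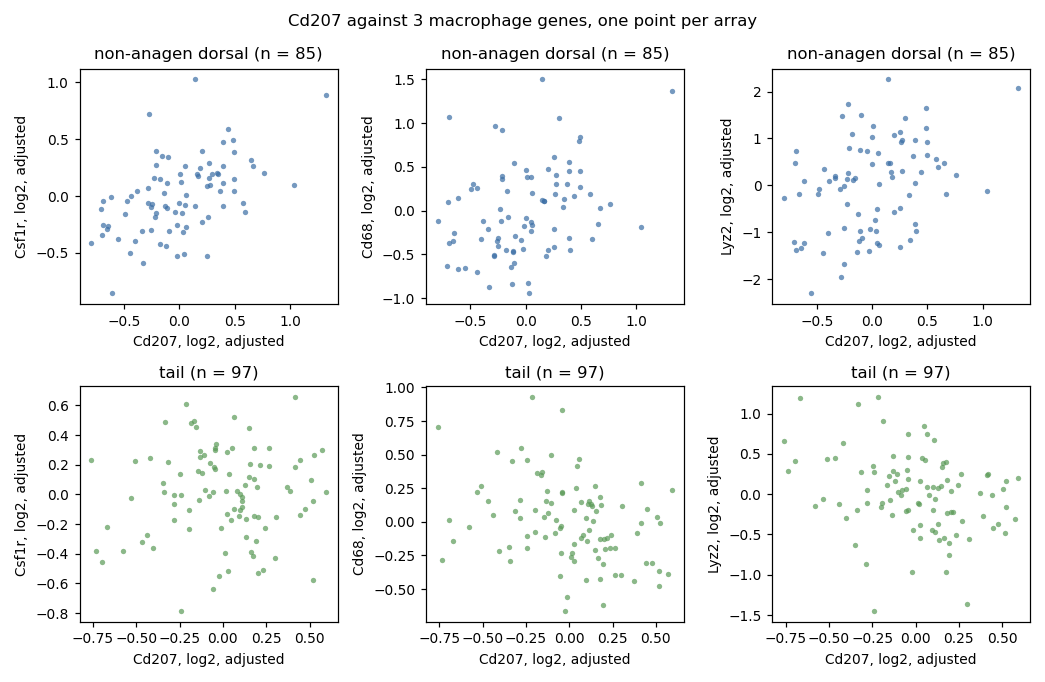
Signal of Csf1r, Cd68 and Lyz2 (vertical axes) against that of Cd207 (horizontal axes), both on the log2 scale and as deviations after adjusting for sex and batch, with 1 point per array in 85 non-anagen dorsal arrays (top) and 97 tail arrays (bottom). The clouds slope upward in dorsal skin; in tail skin those of Cd68 and Lyz2 slope downward and that of Csf1r is flat.

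Of the Langerhans cell markers, Cd207 and Itgax were the pair most closely correlated in both tissues. Cd207 and Itgax correlated at r = 0.60 in tail arrays (rho = 0.54, adjusted p over all genes = 4.11e-07, r = 0.60 without 2 arrays). In dorsal arrays they correlated at r = 0.30 (rho = 0.26, adjusted p = 0.066), at 0.22 without 2 arrays and at 0.21 within batch 1. The test within mice gave a difference of -0.27 between the tissues (p = 0.034). Epcam correlated with Cd207 at r = 0.13 in dorsal and 0.28 in tail arrays, and with Itgax at 0.07 and 0.32.

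In dorsal skin Epcam varied with keratinocyte genes. Its correlations with 5 keratinocyte genes had a median of 0.57 (0.52 to 0.61), and those with Mrc1 and Cd163 were -0.42 and -0.44. In tail arrays the median with the keratinocyte genes was 0.00, and Epcam correlated with Mrc1 at -0.01. The latter depended on scaling: with arrays shifted to the same median it was -0.24 in tail and -0.55 in dorsal arrays. Mrc1 in turn correlated in dorsal skin with 5 genes of lymphatic endothelium (median r 0.81), 5 mast cell genes (0.76) and 5 adipocyte genes (0.68), and inversely with the 5 keratinocyte genes (-0.54). Mrc1 in dorsal skin thus moved with genes of other dermal and subcutaneous cell types, and the part of these in the correlations among members was not tested.

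The genes most like Cd207 were not the same in the tissues. In dorsal arrays they were Il7r, the receptor for interleukin 7 (r = 0.65), Ctsw (0.64) and the leukocyte actin-bundling protein gene Lcp1 (0.64). In tail arrays they were Card9, a signalling adaptor of C-type lectin receptors (0.71), Acad9 (0.66) and Cd72 (0.62). The correlations of Cd207 with 4 pan-leukocyte genes had a median of 0.54 in dorsal and 0.06 in tail arrays, while those with 6 MHC class II genes had medians of 0.45 and 0.42. Itgax in tail skin was most like Ciita, the activator of MHC class II transcription (0.63), Rtn1 (0.61) and Cd207 itself. In dorsal skin its nearest genes were Cd101 (0.58), Gzmc (0.57) and Mmp25 (0.57).

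The nearest genes of the macrophage markers included other macrophage genes and genes that stromal cells express. Mrc1 was most like Clec10a, a galactose lectin (0.93), Pld4 (0.90) and Ctsz (0.90) in dorsal arrays and Pld4 (0.88), Cd34 (0.87), which fibroblasts and endothelium express, and Ifi207 (0.87) in tail arrays. Pld4, an endolysosomal nuclease, was also first for Cd68 in dorsal skin (0.84, followed by Igsf6 and C1qb) and near the top for Lyz2 (0.88, after Ms4a6c at 0.91 and Ly86). Csf1r was nearest to the signalling adaptor Tyrobp (0.72), Ctss and Clec4a3 in dorsal arrays and to the integrin Itgb2 (0.85), Nrp1 and Colec12 in tail arrays.

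Cd163 was nearest to Mrc1, Ifi207 (0.79) and Bicc1 (0.78) in dorsal arrays, and to the complement receptor C3ar1 (0.77), Slc43a3 and Scara5 in tail arrays. Cd14 was nearest to Lyz1 (0.55), St8sia4 and the complement gene C1qa in dorsal arrays, and to the scavenger receptor Msr1 (0.78), C1qb and Ifi207 in tail arrays. In tail skin Cd68 was nearest to Fcer1g (0.75), Plek and C3ar1, and Lyz2 to Lyz1 (0.86), Selenop and C1qb. Epcam was nearest to Macroh2a1 (0.77), Ywhaz and Phyhip in dorsal arrays and to the lysosomal genes Ctsl (0.66), Atp6v1d and Laptm4b in tail arrays.

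The level of a member in the dorsal skin of a mouse was at most weakly correlated with its level in the tail. Over the 82 mice, Pearson's r between tissues ran from 0.01 (Csf1r) to 0.26 (Itgax), and 0 of 9 members passed adjustment over all genes, against 8.68% of genes. Without adjustment 1 member did: Itgax had a permutation p of 0.0181 (rho = 0.17, permutation p = 0.124; adjusted p = 0.149), and r was 0.18 (p = 0.106) without the 2 mice farthest from the median. Cd163 gave r = 0.21 (permutation p = 0.0548, rho = 0.23) and Cd207 r = 0.16 (permutation p = 0.156, rho = 0.17). Within batches 1 and 4 (72 mice), Cd163, Cd14 and Mrc1 gave r = 0.28, 0.25 and 0.23 (permutation p = 0.0169, 0.0375 and 0.048).

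Hair growth in dorsal skin made no difference to the 9 genes that passed the test. Anagen minus non-anagen dorsal skin gave 0 members called at any size by limma, against 5.58% of genes higher and 6.23% lower (0.68% and 0.00531% by at least 1), and 2 members at an unadjusted p under 0.05: Lyz2 (0.51, SE 0.23, adjusted p = 0.139) and Cd68 (0.29, SE 0.12, adjusted p = 0.11). The intervals leave room for sizeable changes. For Mrc1 the difference was 0.42 with a 95% confidence interval from -0.02 to 0.87, and for Cd207 it was -0.23, from -0.46 to 0.01. Without the 5 arrays least like their group the Cd207 difference was 0.01 (limma, adjusted p = 0.985).

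Without those 5 arrays Lyz2 differed by 0.47 (limma, adjusted p = 0.386), Mrc1 by 0.36 (adjusted p = 0.546) and Cd68 by 0.23 (adjusted p = 0.464). Against anagen dorsal skin without them, the tail difference of Cd207 was -1.68 and that of Mrc1 0.92, and the calls of the 9 members were the same.

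All 7 inner root sheath genes were higher in anagen, by 2.74 to 4.97, and all 7 also passed without the 5 arrays. Few of the other listed genes changed in anagen, and most of those calls were lost without the 5 arrays. Without them 11 of the 14 anagen arrays remain, and whether calls were lost to the smaller number was not tested. Of the 11 other Langerhans cell genes 1 was higher and 2 were lower, and without the 5 arrays 1 was higher and 0 lower. Cd24a was higher by 0.28 (limma, adjusted p = 0.00237) and by 0.34 without them (adjusted p = 0.000864). Runx3 was lower by 0.38 and Ahr, a xenobiotic receptor of Langerhans cells and keratinocytes, by 0.38. Without the arrays they differed by -0.22 (adjusted p = 0.286) and -0.17 (adjusted p = 0.139).

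Of the 10 genes of Csf1r ligands and related growth factors, 1 was higher and 1 lower. Il34 was lower by 0.52 (SE 0.11, limma, adjusted p = 0.000315), and the difference was -0.30 (adjusted p = 0.142) without the 5 arrays. Cebpb was higher by 0.25, and by 0.27 (adjusted p = 0.0646) without them. Of 24 other macrophage genes 1 was called, Maf, higher by 0.21, and its difference was 0.12 (adjusted p = 0.496) without them. None of the 6 MHC class II genes or the 8 genes of other dendritic cells was called with or without them.

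Genes of other cell types changed beside these, with Krt1 lower by 0.32, Krt10 by 0.19 and Cd3e by 0.36, and Kit higher by 0.41 and the adipocyte gene Fabp4 by 0.81. None of these 5 passed without the 5 arrays, nor did Pdpn of the lymphatic list, which was higher by 0.39. Of 5 genes of epithelial Epcam partners, St14 was called, higher by 0.30 (limma, adjusted p = 0.000568). Without the 5 arrays 1 gene of that list was called as well. The part of these genes in the values above was not tested.

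The tails of mice with anagen dorsal skin gave no call for a member against those of mice with non-anagen dorsal skin: 0 of 9 passed by limma, and 0 of 9 at an unadjusted p under 0.05 (0% of genes called in either direction, and 378 at an unadjusted p under 0.05). The difference of the anagen effects between dorsal and tail skin also gave 0 of 9 on both counts, against 2.44% of genes higher and 0.972% lower.

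Anagen arrays differed widely in the mean of 7 inner root sheath genes, which mark the growing hair follicle and ran from 6.08 to 12.13. Cd207 was lowest where that mean was highest. In the arrays with the 3 highest means it was 5.79 (mouse 1080, mean 12.13), 5.75 (mouse 1083, mean 11.90) and 6.57 (mouse 1069, mean 11.45), whereas the other 11 anagen arrays lay between 7.22 and 8.23. These 3 arrays had the lowest T cell means (6.54, 6.59 and 6.52) and the lowest MHC class II means (7.84, 7.76 and 8.36) of the 14 as well. All 3 lay below every non-anagen dorsal array in Cd207, and those of mice 1080 and 1083 lay within the range of tail arrays. The part of these other cell types in the Cd207 values was not tested.

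Over the 14 anagen arrays Cd207 and the inner root sheath mean correlated at r = -0.70 (permutation p = 0.00313, rho = -0.69, permutation p = 0.00777), and at -0.70 without the 2 arrays farthest from the median mean. This was 1 of 18 such correlations. The adjusted p over all genes was 0.0916, where 5.74% of genes passed. Without the 3 anagen arrays least like their group, 2 of them the lowest in Cd207, r was -0.51 (permutation p = 0.0949, n = 11). Csf1r gave r = -0.61 (permutation p = 0.0213, rho = -0.60, adjusted p = 0.175), and -0.39 (permutation p = 0.231) without those 3 arrays. Lyz2 gave r = 0.40 (permutation p = 0.16, rho = 0.32) and 0.68 (permutation p = 0.021) without them. Mrc1 gave r = 0.54 (permutation p = 0.0494, rho = 0.56, adjusted p = 0.276), 0.36 without the 2 arrays farthest from the median mean and 0.51 (permutation p = 0.112) without the 3 arrays.

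**Figure D5:**
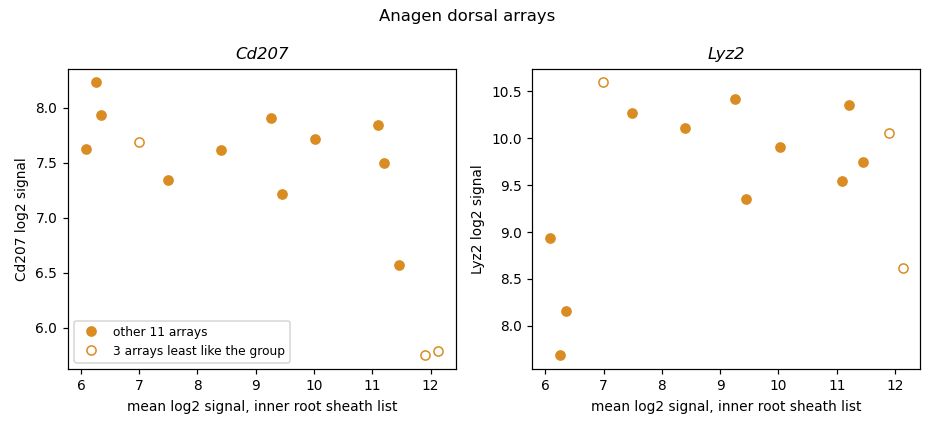
Log2 signal of Cd207 (left) and Lyz2 (right) against the mean log2 signal of 7 inner root sheath genes in the 14 anagen dorsal arrays, with open circles for the 3 arrays least like the group (mice 1039, 1080 and 1083). Cd207 lies between 7.22 and 8.23 except in the 3 arrays farthest to the right, while Lyz2 is lowest in 2 of the 3 arrays farthest to the left.

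In tail arrays 4 of the 6 macrophage markers were positively correlated with the inner root sheath mean, which ran from 6.04 through a median of 9.398 to 10.80. Mrc1 correlated with it at r = 0.45 (permutation p = 2e-05, rho = 0.42, adjusted p over all genes = 0.000148, r = 0.43 without 2 arrays), Cd14 at 0.36 (rho = 0.34, adjusted p = 0.00458), Lyz2 at 0.33 (rho = 0.32, adjusted p = 0.00957) and Csf1r at 0.30 (rho = 0.27, adjusted p = 0.0219), each with an r of 0.25 or more without 2 arrays. These 4 of 9 members, all positive, stand against 22.3% of all genes, counted in either direction. Cd163 gave r = 0.24 (rho = 0.25, adjusted p = 0.0777), Cd68 r = 0.16 (rho = 0.12, adjusted p = 0.261) and Cd207 r = -0.19 (rho = -0.22, adjusted p = 0.154).

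Cd207 was higher in females than in males in dorsal skin. In non-anagen dorsal arrays Cd207 ran from 7.05 through a median of 7.75 to 9.04 in females and from 6.58 through 7.35 to 8.42 in males. The sexes overlapped, and females were higher by 0.33 (SE 0.09, limma, adjusted p = 0.00332). Epcam was higher in females by 0.12 (SE 0.05, adjusted p = 0.0432), which did not pass within batches 1 and 4 (adjusted p = 0.0626) or without the 5 arrays least like their group (adjusted p = 0.0754). These were 2 of 9 members, against 9.84% of genes higher in females and 8.89% lower, a share near that of all genes; Itgax differed by 0.05 (adjusted p = 0.644).

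Other genes of the lists followed in both directions; they are named after their values were seen. Il34 was higher in females by 0.31 (limma, adjusted p = 0.00476), Runx3 by 0.23 and Ciita by 0.17. Of the 24 other macrophage genes 4 were lower in females, Fcgr3 by 0.49, C1qc by 0.47, Pf4 by 0.44 and Ms4a7 by 0.38. Blood endothelial genes moved with them, with Pecam1 and Cdh5 each lower by 0.47, and so did Flt4 of lymphatic vessels, lower by 0.54, while the keratinocyte gene Trp63 was higher by 0.20. The part of these in the member values was not tested. Mrc1 (-0.38, adjusted p = 0.0995), Lyz2 (-0.35, adjusted p = 0.125) and Cd14 (-0.19, adjusted p = 0.077) did not pass.

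In tail skin 0 of 9 members differed between the sexes after adjustment (0.696% of genes higher in females and 0.361% lower), and 3 did at an unadjusted p under 0.05. Cd207 was 0.17 higher in females there (adjusted p = 0.442), and its sex difference was not shown to depend on the tissue (dorsal minus tail 0.16, SE 0.12, adjusted p = 0.459). For Lyz2 and Cd14 the sex difference did depend on the tissue, as 3.76% of genes did in the one direction and 3.97% in the other. Lyz2 averaged 8.88 in females and 9.24 in males in non-anagen dorsal skin, and 10.06 and 9.73 in tail skin, so that dorsal minus tail was -0.70 (SE 0.23, limma, adjusted p = 0.0389). Cd14 averaged 4.72 and 4.91 in dorsal skin and 5.54 and 5.42 in tail skin, and dorsal minus tail was -0.32 (SE 0.11, adjusted p = 0.0433). Neither passed within batches 1 and 4 (adjusted p = 0.0739 and 0.0677) or without the 5 arrays least like their group (0.0602 and 0.0632), and Cd14 did not after quantile normalization (-0.31, adjusted p = 0.0513). Mrc1 gave -0.61 (SE 0.23, adjusted p = 0.0809).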

How the data were processed

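The values are log2 expression values as the authors deposited them, made with RMA per the submitters' processing notes, with the version and any later adjustment not given in the sources used here. Of 35556 probe sets, 21218 name 1 gene; for the 1386 genes with several, the one with the highest mean was kept, which left 18820 genes, and each of the 9 members had 1. Gene positions and promoters are from RefSeq (GRCm38.p6). No low-value filter was applied to the results given. Depth does not apply to arrays, whose number limits the precision; replicates are mice.

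Differences were fitted with limma 3.58.1 (lmFit, eBayes) in R 4.3.3, with sex as a covariate and, within a tissue, batch; p-values were adjusted by Benjamini-Hochberg over all genes at a threshold of 0.05. Mouse numbers pair the tissues; the correlation of arrays of a mouse was 0.06 to 0.08 over 1882 genes, and the pairing was used as an alternative. Correlations and sign changes used 100000 two-sided permutations in Python 3.11.15 (numpy 2.4.6, scipy 1.17.1). Both were tested on simulated data.

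The members and gene lists were chosen with earlier results of these data known. Named genes were drawn from the members and the 3 genes most like each member. Of each other list they came from the 4 genes with the largest tail minus non-anagen dorsal difference and from its called genes in anagen. Others are said to be chosen after seeing values. Alternatives were other scalings, a filter on low values, mouse as a block, no sex covariate, batches 1 and 4 alone, arrays left out and the mean of probe sets. Tests of Cd207 correlations between tissues, and the inner root sheath correlations without 3 arrays, were added after seeing the data.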

Additional observations from a re-analysis of the deposited data

Results flagged for a closer look

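The sex difference of 2 macrophage markers differed between the tissues by the test of the difference itself. For Lyz2 it was -0.70 on the log2 scale, dorsal minus tail (limma, adjusted p = 0.0389), with females below males in non-anagen dorsal skin by 0.35 and above them in tail skin by 0.34. For Cd14 it was -0.32 (limma, adjusted p = 0.0433), with females below males by 0.19 in dorsal skin and above them by 0.13 in tail skin. Over all genes 3.76% and 3.97% passed this test in either direction. Neither gene passed within batches 1 and 4 (-0.65 and -0.31) or without the 5 arrays least like their group (-0.65 and -0.30), and Cd14 did not after quantile normalization (-0.31). The part of other cell types in these values was not tested.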

How the results depend on the processing

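Of all recomputed values, 895 kept their direction and side of the threshold, or stayed within 1.5 times for counts. The replicate block moved no member's call: tail minus non-anagen dorsal Cd207 was -1.70 with mouse as a random block and -1.71 as a difference within mice. With arrays at the same median, 489 genes were higher and 620 lower by at least 1 in tail against non-anagen dorsal skin (741 and 381 as deposited), 5481 were higher at any size, 408 and 494 against anagen dorsal skin, 339 were lower in the anagen effect difference (317 with quantile normalization) and 1194 higher in the sex effect difference (446 within batches 1 and 4). The low-value filter, which tests fewer genes, left 2387 and 1814 genes lower in tail skin and 72 and 39 differing by sex in tail. Without the 5 arrays, anagen gave 0 genes lower by at least 1, 498 higher and 116 lower, and the effect difference 255 and 17. The cause was not tested.

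Values near 0 changed sign. Csf1r in tail against non-anagen dorsal skin was -0.019 with quantile normalization. At the same median, Mrc1 in tails by dorsal phase was 0.000598, and the Itgax sex effect difference was 0.0114, against 0.0202 with quantile normalization and 0.00487 within batches 1 and 4. Without the 5 arrays, anagen Cd207 was 0.00856 and Itgax 0.125, and Cd14 in tails was -0.0258. Correlations changed sign as well. Cd207 with Cd14 in dorsal skin was -0.0113 at the same median and -0.00757 within batch 1. In tail skin at the same median, Cd207 with Csf1r was -0.0636, Epcam with Csf1r, Cd163 and Cd14 was -0.16, -0.166 and -0.0884, and Itgax with Csf1r was -0.0372. Without 2 arrays, Epcam in tail skin was 0.00928 with Mrc1 and -0.0151 with Cd14, and Epcam with the inner root sheath mean in anagen was -0.0561. Leaving out single replicates was not run, since every group holds over 10 arrays.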
